A study of Mus musculus with 4 samples.

Results

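The 10 genes Fos, Fosb, Jun, Junb, Egr1, Klf4, Plk2, Btg2, Ier3 and Dusp1 are immediate early and activity-linked genes, and their levels were compared between astrocyte cultures from 4 brain regions. They were taken by name: every probe set whose annotation lists 1 of these genes and no other was used. This gave 13 probe sets of 22690 on the array and 10 genes of 12393. Jun, Klf4 and Btg2 had 2 probe sets each and the other genes 1.

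The cultures came from the ventral mesencephalon (VM, the floor of the midbrain), the subventricular zone (SVZ, a germinal layer beside the lateral ventricle), the olfactory bulb (OB) and the hippocampus (HC). All were primary astrocytes from pups of the outbred mouse stock CD-1 at postnatal day 3, with no treatment that differed between them. The attached cells went through a shaking step at 200 rpm meant to enrich astroglia, and were then plated again as monolayers in DMEM with 10% fetal bovine serum. Each culture was measured on 1 array, and tissue of littermates was pooled, so a region stands for 1 pooled culture. The design text names 4 littermates and then 3 pooled pups.

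Immediate early genes are switched on by serum, growth factors, cytokines, calcium or membrane depolarisation, without the need for new protein synthesis. Signals through MAP kinases and the factors SRF and CREB act on their promoters, and most of the transcripts are short-lived. Some of the products are transcription factors, such as AP-1, a dimer of a Fos and a Jun protein, and the zinc finger proteins EGR1 and KLF4. Others, such as the phosphatase DUSP1, limit the signals that switched the genes on. In astrocytes these genes are used as signs of recent stimulation, and handling of cells and serum can also raise them.

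Promoter letters were also read. The genes were named as a class whose promoters respond to known signals, so the counts describe the list and do not test it. For the members 1 entry per gene was used, and the shares of all promoters were not matched for base composition. Of the 10 genes 9, all but Egr1, matched an entry in the RefSeq promoter table (build GRCm38.p6). The 250 bases before the transcription start are printed for 7 of them. Fos, Junb, Dusp1 and Ier3 stand for genes high in the VM and SVZ cultures, and Klf4, Plk2 and Btg2 for other patterns. Sequences run 5′ to 3′ on the gene's strand, and capitals mark the core of the cAMP response element, TGACG on either strand, to which CREB and ATF proteins can bind.
Fos, chr12:85473640-85473889, plus strand: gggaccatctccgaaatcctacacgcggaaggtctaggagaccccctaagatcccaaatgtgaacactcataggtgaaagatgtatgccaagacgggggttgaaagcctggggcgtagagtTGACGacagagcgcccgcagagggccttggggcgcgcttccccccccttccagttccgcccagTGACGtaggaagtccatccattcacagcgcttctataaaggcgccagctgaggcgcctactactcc
Junb, chr8:84978749-84978998, minus strand: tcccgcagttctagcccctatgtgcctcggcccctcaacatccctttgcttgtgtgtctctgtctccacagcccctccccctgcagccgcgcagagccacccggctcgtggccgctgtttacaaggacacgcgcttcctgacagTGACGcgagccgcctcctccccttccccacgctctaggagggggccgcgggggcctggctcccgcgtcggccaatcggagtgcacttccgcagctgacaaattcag
Dusp1, chr17:26508473-26508722, minus strand: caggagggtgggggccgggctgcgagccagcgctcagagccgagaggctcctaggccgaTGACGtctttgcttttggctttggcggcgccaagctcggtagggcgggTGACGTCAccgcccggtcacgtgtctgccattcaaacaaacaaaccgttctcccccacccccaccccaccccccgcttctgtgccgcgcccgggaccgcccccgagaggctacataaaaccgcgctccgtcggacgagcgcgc
Ier3, chr17:35821463-35821712, plus strand: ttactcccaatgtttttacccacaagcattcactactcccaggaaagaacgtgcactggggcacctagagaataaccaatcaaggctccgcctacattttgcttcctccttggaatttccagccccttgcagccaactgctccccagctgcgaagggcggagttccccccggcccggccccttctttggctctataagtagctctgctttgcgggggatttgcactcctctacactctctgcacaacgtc
Klf4, chr4:55532476-55532725, minus strand: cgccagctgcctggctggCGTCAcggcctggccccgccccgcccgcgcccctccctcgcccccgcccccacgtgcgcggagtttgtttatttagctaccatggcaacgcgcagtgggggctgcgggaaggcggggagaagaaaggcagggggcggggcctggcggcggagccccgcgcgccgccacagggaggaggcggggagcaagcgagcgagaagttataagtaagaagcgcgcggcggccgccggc
Plk2, chr13:110394794-110395043, plus strand: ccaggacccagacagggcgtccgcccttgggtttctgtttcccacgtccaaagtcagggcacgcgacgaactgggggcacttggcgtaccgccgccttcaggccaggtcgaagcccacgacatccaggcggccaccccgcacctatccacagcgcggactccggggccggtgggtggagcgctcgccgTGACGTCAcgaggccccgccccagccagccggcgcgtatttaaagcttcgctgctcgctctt
Btg2, chr1:134079156-134079405, minus strand: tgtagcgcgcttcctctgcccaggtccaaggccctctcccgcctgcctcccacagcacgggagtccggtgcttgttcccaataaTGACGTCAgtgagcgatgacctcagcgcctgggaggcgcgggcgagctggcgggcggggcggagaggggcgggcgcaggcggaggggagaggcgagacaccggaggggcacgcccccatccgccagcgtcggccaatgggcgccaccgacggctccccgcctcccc
This core was found in 7 of the 9 promoters, in all but those of Jun and Ier3, while 17.8% of all 32851 promoters of the same length held it. The full palindrome TGACGTCA, which holds the core on both strands, was found in Plk2, Btg2 and Dusp1, 3 of 9, against 1.55% of all promoters. In Fos the core lay 129 and 66 bases before the start. All motifs were searched on both strands. The GC box GGGCGG was found in 8 of 9 promoters, all but Junb, against 32.7% of all. The EGR-type sequence GCGNGGGCG, which can overlap a GC box, was found in Fosb, Klf4 and Btg2, against 4.7%. The AP-1 sequence TGANTCA (6.75% of all promoters), the ETS sequence CCGGAAG (6.91%) and the CArG box bound by SRF (1.47%) were found in none of these 9 windows. TATAAA was found in Fos (12.4% of all promoters) and CCAAT in Jun, Junb, Btg2 and Ier3 (33.8%). Such matches describe letters in a window and are not measured binding. Sites more than 250 bases before the start were not searched, and Egr1 was not covered, so an absent match does not mean that a gene lacks the site.

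The signal is a linear intensity in arbitrary units, and the 4 arrays as deposited have nearly the same trimmed mean (400.1 to 400.2). A floor of 122.1, the median over all probe sets and arrays, was applied before log2, and 7987 genes exceeded it in 1 culture or more. As every region has a single array, differences lack a replicate check, no p-value is given, and the number of arrays limits the precision. As a guide to measurement noise, the 2 brightest probe sets of 1973 genes, both above the floor on all arrays, were compared. They differed in a log2 contrast between regions with a median-based SD of 0.22 per probe set. A difference of 2 SD is 0.45, or 1.36-fold, and smaller steps are called within the noise. The plain SD of the same contrast was 0.29, and a limit of 2 such SD would be wider. Steps such as that of Fos between OB and HC (1.41-fold) would fall within it. This noise leaves out the spread between cultures, and genes below the floor on any array, such as Fosb, were not used for it. The hybridisation control probe sets, which are normally added in equal amount, were not equal between arrays. Relative to the array of HC, their median was 1.44-fold in VM, 1.69-fold in SVZ and 1.22-fold in OB. The 3 prime to 5 prime ratio of beta-actin was 1.49, 1.46, 1.30 and 1.27 in VM, SVZ, OB and HC. That of Gapdh was 0.88, 0.91, 0.92 and 0.86. The controls and the actin ratio were higher in the arrays where most of the 10 genes were higher, and the Gapdh ratio was highest in OB. Their part in the results was not tested, and values rescaled on the controls are given with the pairs of regions.

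Among the AP-1 genes, Fos and Junb were high in the VM and SVZ cultures, lower in OB and lowest in HC. Fos, the prototype of the family and a partner of Jun proteins, had a signal of 6501 in VM, 6405 in SVZ, 4034 in OB (4033.5 as deposited) and 2852 in HC. The first 2 cultures were level within the noise and stood 1.61-fold and 1.59-fold above OB, which stood 1.41-fold above HC. Junb, a Jun protein that also restrains growth, read 2921 in VM, 2731 in SVZ, 1201 in OB and 926 in HC. Its VM level was 2.43-fold that of OB and 3.15-fold that of HC, and the last 2 cultures differed by 1.30-fold, within the noise.

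Jun and Fosb differed less in measured fold. Jun, the main dimer partner of Fos, read 2531 in VM, 2319.7 in SVZ, 1609.6 in OB and 1908 in HC by its brighter probe set. Its other probe set read 1161, 1286, 892 and 852 in the same order of cultures. Both put OB and HC below the other cultures, but every step between neighbours in the order was within the noise, and the whole range was 1.57-fold and 1.51-fold. Fosb, whose protein and its short splice form build up under repeated stimulation, was just above the floor at 168 in VM and 159 in SVZ. In OB and HC it read 17.4 and 20.0, below the floor. The fold is therefore a lower bound: at least 1.38-fold in VM and at least 1.30-fold in SVZ over either of them.

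The zinc finger genes differed more. Egr1, a factor that follows MAP kinase activity, read 12062 in VM, 11875 in SVZ, 6292 in OB and 3552 in HC. The cultures thus formed 3 levels, with 1.92-fold between VM and OB and 1.77-fold between OB and HC. Klf4, a Krüppel-like factor known as a pluripotency factor and as a regulator of inflammatory genes, had the widest range of the 10 genes. It read 2383 in VM, 840.1 in SVZ, 706 in OB and 165.5 in HC. VM was 2.84-fold above SVZ and 14.4-fold above HC, while SVZ and OB were level within the noise. The other Klf4 probe set read 2036.5, 774, 833 and 111 in the same order of cultures, the last of these below the floor, so its fold of VM over HC was at least 16.7.

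The genes for feedback and growth control followed different orders. Dusp1, a phosphatase that inactivates MAP kinases, read 5867 in VM, 5507 in SVZ, 2651 in OB and 2194 in HC. Ier3, a stress-induced regulator of cell survival, read 8507, 7374, 1911 and 2488 in the same order of cultures. For both genes the cultures fell into an upper and a lower pair, with steps within a pair of at most 1.30-fold, and Ier3, not Dusp1, had its lowest level in OB. The gap between the pairs, from SVZ to the next culture, was 2.08-fold for Dusp1 and 2.96-fold for Ier3.

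Plk2, a polo-like kinase that in neurons takes part in synaptic scaling, read 4036 in VM, 2576 in SVZ, 2709 in OB and 499.5 in HC. HC thus stood alone, with OB 5.42-fold and SVZ 5.16-fold above it. Btg2, an antiproliferative gene and target of p53, was the one member highest in OB, and its 2 probe sets disagreed on how far. The first read 2439.6 in OB, against 632.5 in VM, 418 in SVZ and 506 in HC, a 3.86-fold lead over the next culture. The other probe set read 967 in OB, 927 in VM, 735 in SVZ and 313 in HC, so there OB led by 1.04-fold, within the noise. By the first probe set the lowest level was in SVZ and by the other in HC. The place of Btg2 in OB therefore rests on 1 probe set, and which one reflects the transcript better was not tested.

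**Figure D1:**
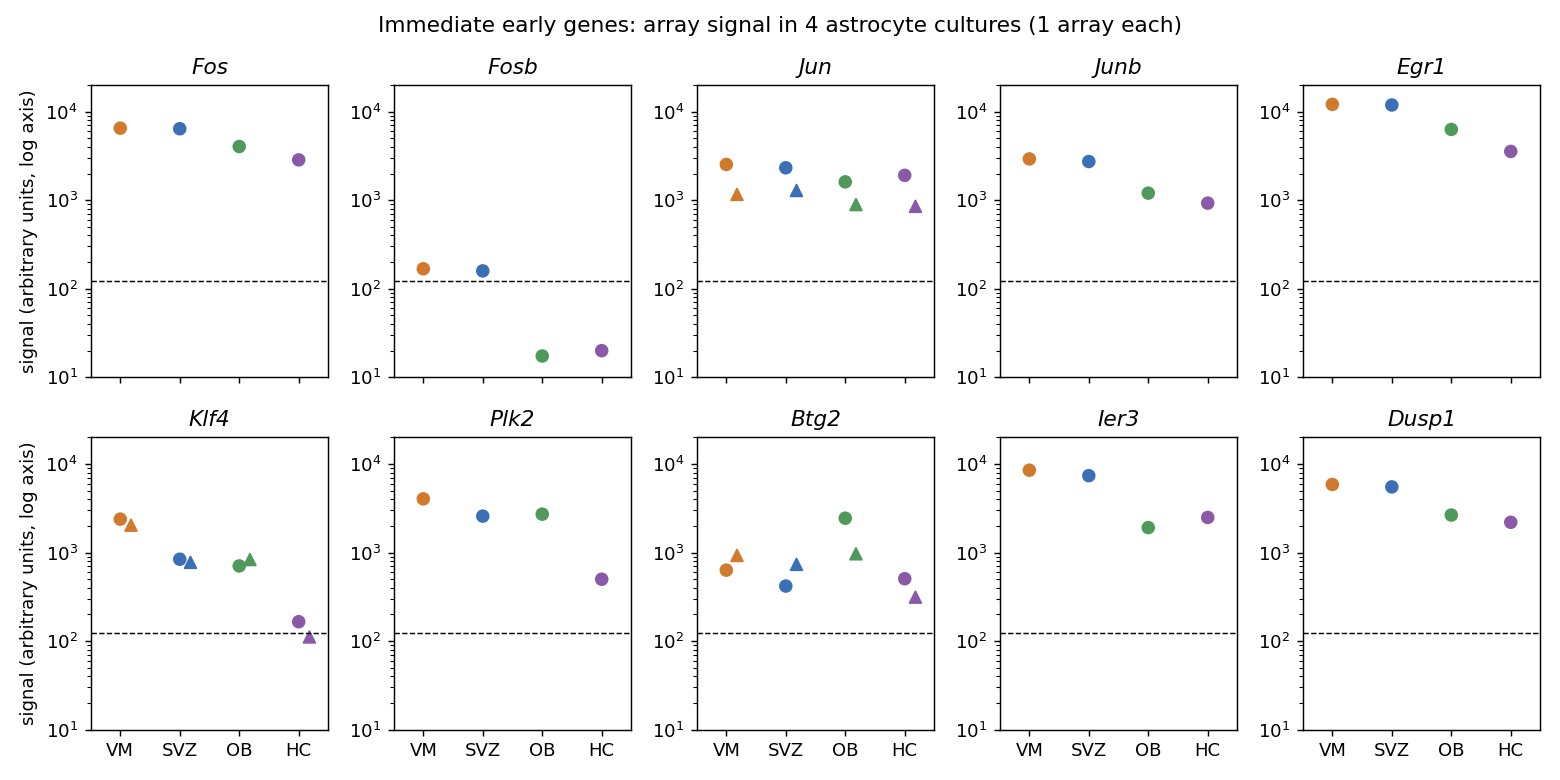
Signal of each of the 10 genes (log axis, arbitrary units) on the 1 array of each culture: ventral mesencephalon (VM), subventricular zone (SVZ), olfactory bulb (OB) and hippocampus (HC). Circles are the brighter probe set, triangles the other one where a gene has 2, and the dashed line is the floor of 122.1. Fos, Junb, Egr1, Ier3 and Dusp1 sit at 2 similar levels in VM and SVZ with both other cultures below them, Klf4 and Plk2 are lowest in HC, and the 2 Btg2 probe sets part in OB.

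Across the 10 genes, VM held the highest level of 9 and OB that of 1, Btg2, while the same was so for 20.0% and 28.7% of all 7987 genes. VM and SVZ together held the 2 highest levels of 8 genes (17.0% of all genes): all but Plk2 and Btg2, for which they were VM and OB (16.7% of all genes). This order rule was chosen after the values were seen. Among these 8 genes, the step from the second to the third culture was within the noise for Jun (1.22-fold) and Klf4 (1.19-fold). The other Klf4 probe set put OB (833) above SVZ (774). For Fosb, below the floor in OB and HC, the step from the second to the third culture is known only as at least 1.30-fold. For 5 genes, Fos, Junb, Egr1, Ier3 and Dusp1, both upper cultures stood at least 1.5-fold above both others (3.36% of all genes), and for 3, Junb, Ier3 and Dusp1, at least 2-fold (1.5% of all genes). HC was the lowest culture for 6 genes (19.4% of all genes), OB for Jun and Ier3 (22.2%) and SVZ for Btg2 (19.6%), while Fosb was below the floor in both lower cultures. Between the upper cultures, VM was above SVZ for all 10 genes by the brighter probe set, but for 7 of them, all but Klf4, Plk2 and Btg2, the step was within the noise. By the other probe set of Jun, and for Fos after quantile normalization, SVZ was the higher.

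A region that differs at least 2-fold from each of the others was found for 3 of the 10 genes. Klf4 was higher in VM by this rule (1.57% of all genes were) and Btg2 in OB (1.87%), and no member in SVZ (1.28%) or HC (2.49%). Klf4 and Plk2 were lower in HC (0.488% of all genes), and no member was lower in VM (0.563%), SVZ (1.01%) or OB (1.55%). That makes 2 genes called higher in any region, where 7.2% of all genes were, and 2 called lower, where 3.62% were. The members were proposed with results of these data known, so these shares describe the list and do not test it. The range over the 4 cultures was 2-fold or more for 8 of the 10 genes, against 31.0% of all genes.

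Taken pair by pair, HC was the culture from which the members were furthest. VM was at least 2-fold above HC for 7 of 10 genes, Fos, Junb, Egr1, Klf4, Plk2, Ier3 and Dusp1, against 6.77% of all genes. SVZ was so for the same 7 genes, against 4.95%, and OB for Klf4, Plk2 and Btg2, against 5.23%. In the other direction HC was 2-fold above VM (9.43% of all genes), SVZ (6.54%) or OB (8.69%) for none. These comparisons share 1 array, that of HC. Towards OB, Junb, Klf4, Ier3 and Dusp1 were at least 2-fold higher in VM (6.46% of all genes) and Junb, Ier3 and Dusp1 in SVZ (9.0%). Btg2 alone was 2-fold higher in OB than in VM (5.53%) and than in SVZ (8.39%). Between the upper cultures, Klf4 was 2-fold higher in VM (4.97%) and no gene in SVZ (5.45%).

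**Figure D2:**
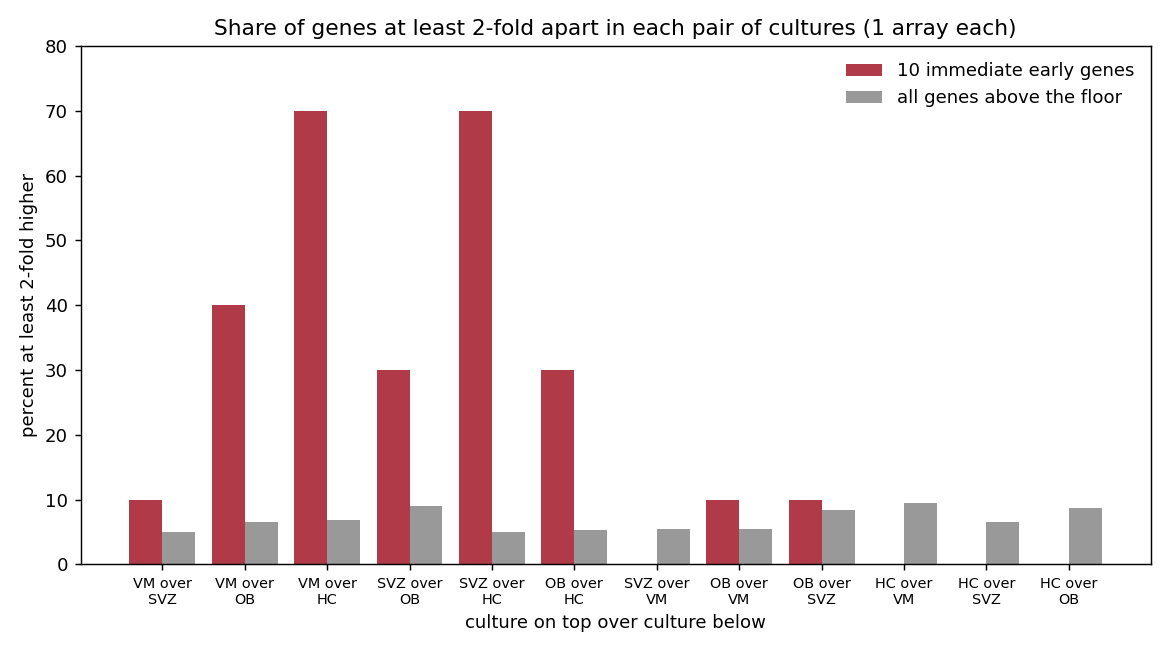
Percent of the 10 genes (red) and of the 7987 genes that exceed the floor in some culture (grey) that were at least 2-fold higher in the first culture than in the second, for each direction of the 6 pairs (VM, ventral mesencephalon; SVZ, subventricular zone; OB, olfactory bulb; HC, hippocampus; 1 array each). The tallest bars, both 7 of 10 genes, are VM over HC and SVZ over HC, and no member is 2-fold higher in HC than in any other culture.

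The median log2 difference over the 10 genes was 1.54 for VM minus HC and 1.44 for SVZ minus HC, against -0.04 and 0.00 over all genes. For OB minus HC it was 0.44, and for VM minus SVZ 0.11, against 0.00 over all genes in both. As a distance from the mean of the other regions, the median was 0.90 in VM, 0.58 in SVZ, -0.31 in OB and -0.997 in HC. The same medians over all genes were -0.06, -0.02, -0.02 and 0.01. When the arrays were rescaled on the hybridisation controls, the median of all genes moved to -0.55 for VM and -0.72 for SVZ, both minus HC. The 10 genes then had medians of 1.01 and 0.68. In each pair of regions the rescaling changed the median of the 10 genes more than its distance from the median of all genes. That distance went from 1.58 to 1.56 for VM minus HC. It changed most for VM minus SVZ, from 0.11 to 0.22, and went from 0.597 to 0.522 for SVZ minus OB. Jun and Klf4 no longer had their 2 highest levels in VM and SVZ. After the rescaling 5 members were 2-fold above HC in VM and 2 in SVZ, while 3.66% and 1.4% of all genes were so. On that scale, by their brighter probe sets, Jun and Btg2 were lower in both upper cultures than in HC, and Btg2 was 2-fold higher in HC than in SVZ. With the deposited scaling the brighter probe sets put only Btg2 lower, and in SVZ alone. The other Btg2 probe set was, as deposited, 2.96-fold higher in VM and 2.35-fold higher in SVZ than in HC. For the other Jun probe set these folds were 1.36 and 1.51. Rescaled values of these other probe sets are not given here.

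Genes related to the members by family or pathway were read from 8 lists of 111 genes in all, of which the annotation named 93, and 80 exceeded the floor in 1 culture or more. VM and SVZ held the 2 highest levels of 38 of these 80 genes (17.0% of all genes), and for 25 both stood at least 1.5-fold above both others (3.36%). By the rule of 2-fold from each other region, 12 of the 80 were higher in some region (7.2% of all genes) and 6 lower (3.62%). The lists were written with results of these data known, and they hold genes that are often induced together.

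Of the 9 further AP-1 genes none was called, but 4 had both upper cultures at least 1.5-fold above the others. Among them, chosen after the values were seen, Fosl1 (the Fos-like protein FRA-1) read 1188 in VM and 662 in SVZ, against 28.9 in OB and 43.3 in HC, both below the floor. Maff, a small Maf protein, read 1521 and 2009.5 in the first pair and 186 and 214 in the second. Of the 8 EGR and NR4A genes and their corepressors, 5 were above the floor. Egr2, best known for its part in myelination, read 1026 in VM, 287.5 in SVZ, 291 in OB and 89.1 in HC, and was called higher in the first by 3.53-fold and lower in the last, which is below the floor, by at least 2.35-fold. The other Egr2 probe set read 608, 226, 121.5 and 43.3 in the same order of cultures. There OB and HC were both below the floor, so it gives no call of lower in HC. The nuclear receptor gene Nr4a1 read 2384 and 1162.5 in VM and SVZ, against 92.9 and 143.5 in OB and HC, and was called higher in the first by 2.05-fold. Egr3, Egr4 and Nr4a3 were below the floor on every array.

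In the other families single genes stood out. Of 9 further Krüppel-like genes, Klf5 was lower in HC, at 394 against 1152 to 1269 in the other cultures. Of 8 genes of the BTG, TOB, PLK and IER families, Ier5 was called higher in VM (3161, 2.33-fold over the next culture) and Ier2 lower in HC (850.0, 2.36-fold below the next). Plk4, the kinase that starts centriole duplication, ran the other way, with 889 in HC and 177 to 241 elsewhere. None of the 6 dual-specificity phosphatases above the floor was called.

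The 24 other primary response genes had medians of 0.94 in VM, 0.53 in SVZ, -1.12 in OB and -0.62 in HC. For 16 of them VM and SVZ held the 2 highest levels (17.0% of all genes), and for 13 by at least 1.5-fold (3.36%). Ptgs2, the inducible prostaglandin synthase, was 5.94-fold above the next culture in VM (6113), and Errfi1, an inhibitor of the EGF receptor, 5.02-fold (3058). The serum and glucocorticoid-induced kinase gene Sgk1 was 2.82-fold above the next in VM (6799) and 2.65-fold below the next in OB (489.9). Hbegf, a ligand of the EGF receptor, read 2887 in VM, 5029 in SVZ, 419.7 in OB and 1235 in HC. OB was the lowest culture for 15 of the 24 genes and HC for 7.

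Most genes linked to activity in neurons were not above the floor. Of the 8 that the annotation named, Arc, Homer1, Nptx2, Scg2 and Pcsk1 were below the floor on every array. The G-protein regulator gene Rgs4 read 1090.1 in VM and at most 227 elsewhere, and the activin subunit gene Inhba 884 and at most 219.5. Bdnf, a neurotrophin named here after its values were seen, read 1145 in VM and 598 in SVZ, against 134.5 in OB and less than the floor in HC. Of the 16 genes of the MAP kinase, SRF and CREB pathway above the floor, medians stayed between -0.07 and 0.15 in the 4 cultures. Egfr was called higher in OB (1071.5, 2.43-fold over the next) and the feedback inhibitor gene Spry1 in VM (487, 2.02-fold). A second Egfr probe set above the floor on all arrays also read highest in OB (495) but less than 2-fold over the next. Srf itself read 349 in VM, 351.5 in SVZ, 302.5 in OB and 283 in HC, a range within the noise.

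**Figure D3:**
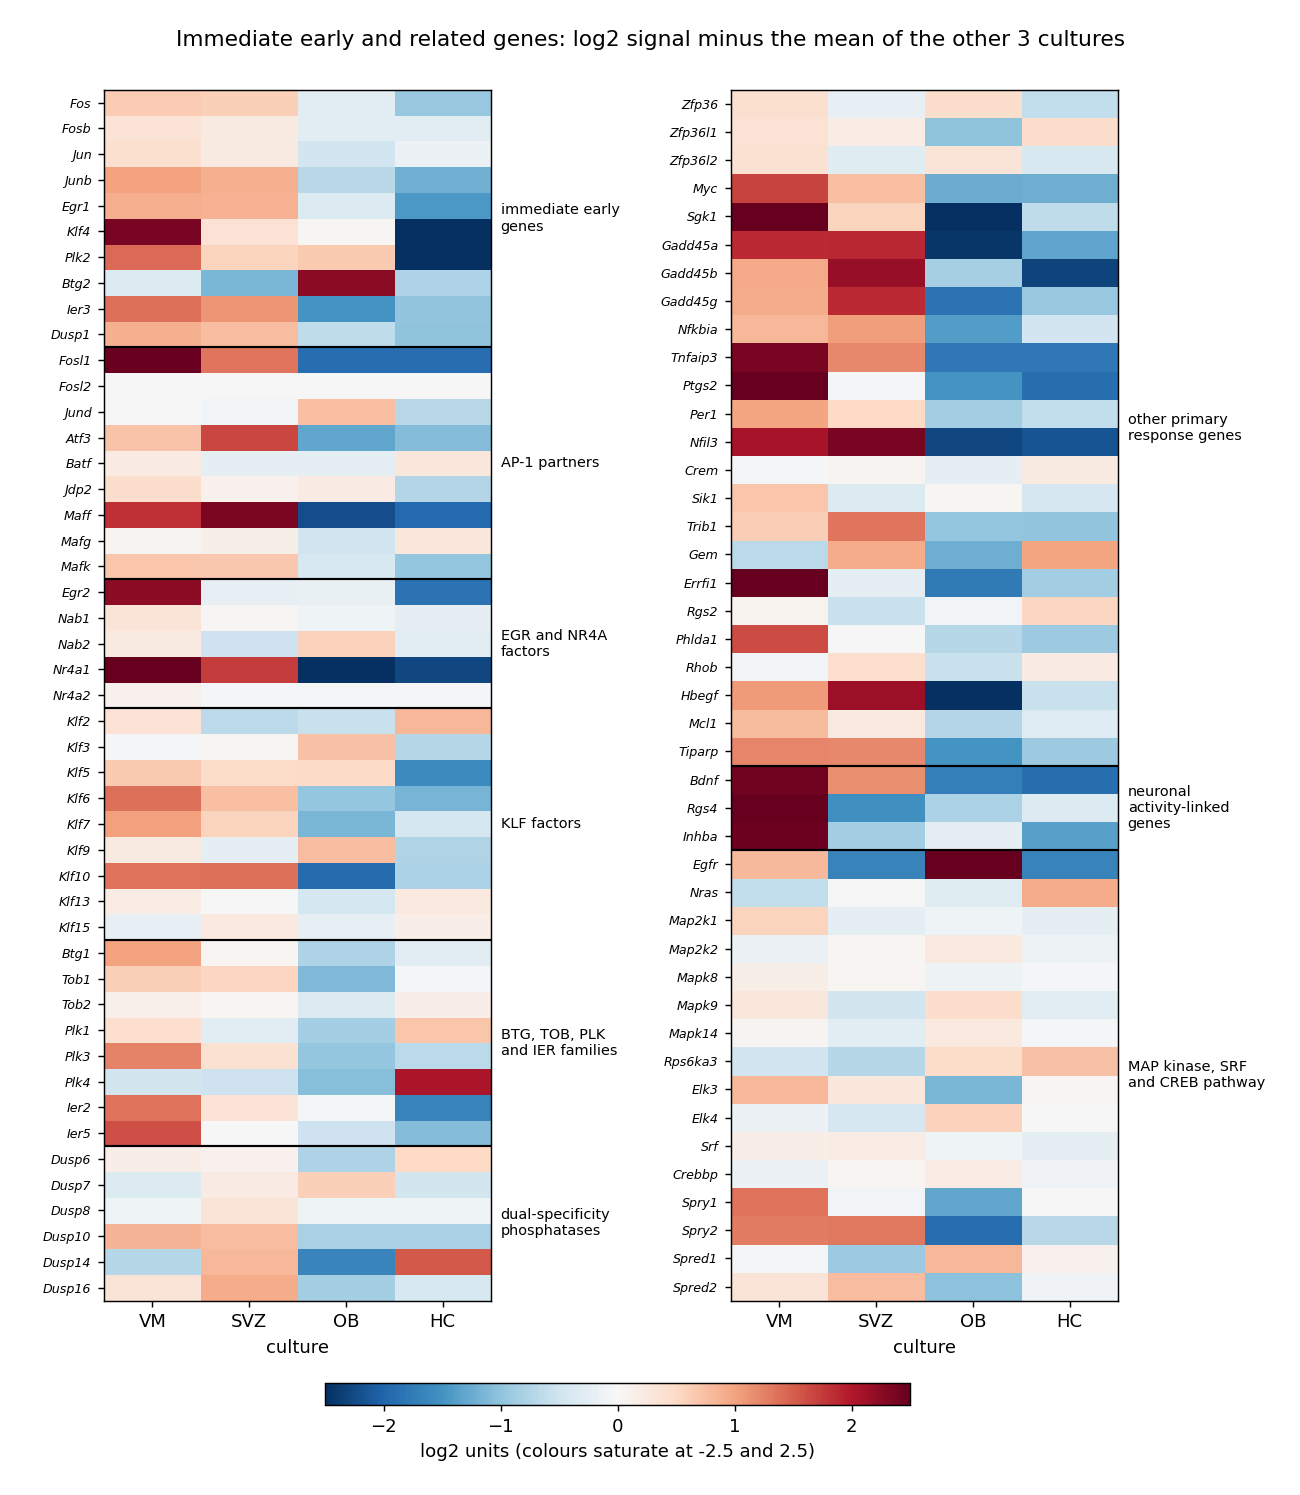
Distance of each culture from the average of the others (colour, log2 units, saturating at -2.5 and 2.5) for the 10 genes and for the related genes that exceed the floor in some culture, in the ventral mesencephalon (VM), subventricular zone (SVZ), olfactory bulb (OB) and hippocampus (HC), 1 array each. Rows are grouped by list; red in VM and SVZ with blue in OB and HC is the most frequent order among the primary response genes, while the MAP kinase, SRF and CREB list is mostly pale.

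The cultures also differed in cell type markers. Those of microglia parted VM and SVZ from OB and HC. So did 5 of the 10 genes in the other direction by at least 1.5-fold, Fos, Junb, Egr1, Ier3 and Dusp1. Plk2 and Btg2 did not part the cultures in this way, and Klf4 was level within the noise between SVZ and OB. In bulk RNA, fewer cells of a type and less RNA per cell cannot be told apart. Of 15 microglia and macrophage markers, none exceeded the floor in VM, 2 did in SVZ, 14 in OB and all 15 in HC. Their summed signal was 385 in VM, 586 in SVZ, 36216 in OB and 38742 in HC. The summed signal of the 10 genes ran in the reverse order, 45608, 40204, 23569 and 15111 (15110.5 as deposited). Egr1 gave the largest part of it on each array (12062, 11875, 6292 and 3552). The defining markers C1qa, C1qc and Trem2 read at most 2.4 in VM and SVZ. The part of microglia in the levels of the immediate early genes was not tested. The microglial split and that of the 5 genes cannot be told apart with 1 array per region.

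Of the other marker lists, those of neurons and of pericytes and smooth muscle also had larger sums in both upper cultures than in both lower ones, and the rest did not. The 11 astrocyte markers summed to 14687 in VM, 24674 in SVZ, 23100 in OB (23099.5 as deposited) and 36015 in HC. The sum was largest in HC, but single markers followed different orders: of the 10 above the floor, 5 were highest in HC, 3 in OB and 2 in SVZ. Gfap, the astrocyte filament gene, read 1007, 3112, 3800.2 and 10027 in the same order of cultures, while the metabolic enzyme gene Aldh1l1 read 1711, 5106, 311 and 1727. Slc1a2, a glial glutamate transporter gene, was below the floor on every array. S100b was below it in VM (73.0) and SVZ (33.6). Thus 9 of the 11 markers exceeded the floor in VM and in SVZ, and 10 in OB and in HC. The 13 fibroblast and meningeal markers summed to 42895 in VM, 12478 in SVZ, 50432 in OB and 23965 in HC. The 11 proliferation markers summed to 11191, 18601, 7031 and 11818 in the same order of cultures. The large sum in SVZ came with the cyclin gene Ccnd1 at 10374, and 8 of the 11 markers were highest in HC. Of the 11 neuronal markers 3 exceeded the floor somewhere, with a summed signal of 1530.2, 4421, 553 and 914, most of it from Stmn2 (1331, 3465, 218 and 514). The pericyte and smooth muscle markers summed to 18344.5, 19165, 16036 and 17189.9. Of these and the remaining lists, 1 of 7 endothelial, 4 of 7 pericyte and smooth muscle and 5 of 6 oligodendrocyte lineage markers were above it, and their part in the members' levels was not tested.

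**Figure D4:**
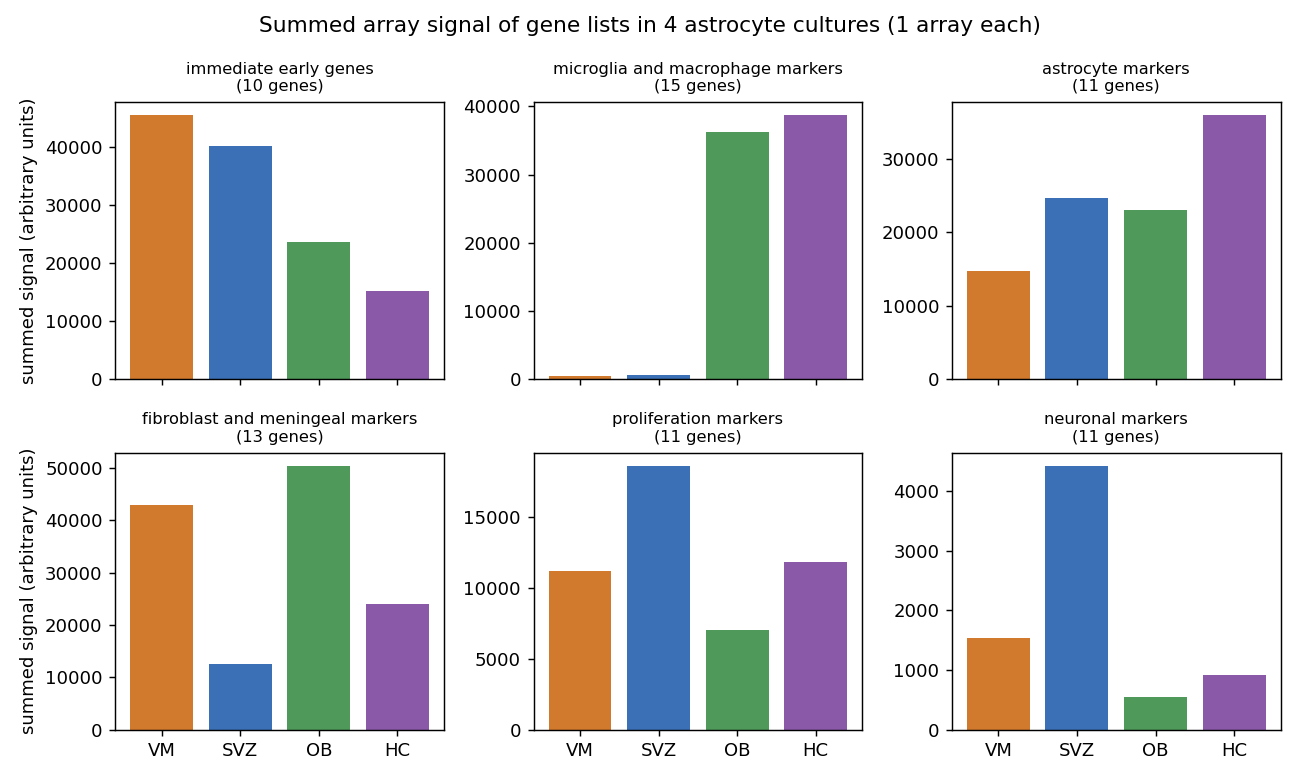
Summed signal (arbitrary units, linear axis from 0) of the 10 immediate early genes and of 5 marker lists in the ventral mesencephalon (VM), subventricular zone (SVZ), olfactory bulb (OB) and hippocampus (HC), 1 bar per array. The microglia and macrophage panel is high in OB (36216) and HC (38742) where the immediate early panel is low (23569 and 15111); the neuronal panel is also higher in VM and SVZ, and the astrocyte, fibroblast and proliferation panels follow other orders.

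Likeness of a pattern was measured as the root mean square difference between region-centred, floored log2 profiles over the 4 cultures. It was taken for the 8 members with a range of at least 2-fold against 2453 genes of that range. With 4 points many genes are alike, so this is a description. The 3 genes nearest to Fos were Topors, Aen and Axl (0.04 to 0.05), and 29 genes lay within 0.16, 1 SD of a probe set level on 1 array. Nearest to Egr1 were Arid5b, Parp8 and Zbtb21 (0.04 to 0.07), and nearest to Dusp1 were Ext1, C1ra and Zkscan5 (0.07 to 0.09). In HC, Arid5b (101.4) and Parp8 (120.5) were below the floor, so their likeness to Egr1 there rests on the floor. Junb had Akap2, Dusp1 and Zbtb21 as neighbours (0.07 to 0.11), and Ier3 had Tiparp, Zfp568 and Tor3a (0.08 to 0.10). Junb and Dusp1 were thus each other's closest member, at 0.10. Klf4 and Plk2 had no gene within 0.16, a narrower limit than the 0.45 used for steps between cultures. The nearest to Klf4 were Ifi47, Egr2 and Plk2 (0.38 to 0.44), and to Plk2 they were Nupr1, Hes1 and Phlda3 (0.29 to 0.36). Btg2, by its brighter probe set, had Rgs5, Ngfr and Stk39 (0.10 to 0.12), which read 582.5 to 662 in OB and at most 172 elsewhere. All of these neighbours were below the floor in SVZ and HC, where Btg2 read 418 and 506. Their likeness to Btg2 therefore rests in part on the floor: Ngfr read 13.5 in SVZ and 9.8 in HC.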

How the data were processed

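Total RNA of 4 astrocyte cultures was hybridised to 1 Affymetrix array each. The authors deposited 1 linear signal intensity for each probe set, from GCOS 1.4 per the submitters' processing notes. Its algorithm is not given in the sources used here. For each array the 2% trimmed means were 400.1 to 400.2, so no further scaling was applied. Values were floored at 122.1 and log2 transformed. Genes came from the platform annotation (20380 probe sets with 1 symbol, 691 with several, 1555 with none, 64 controls), and 20351 matched RefSeq by gene identifier. Where a gene had several probe sets, the brightest by mean log2 level was used. With 1 array per region there was no test: a gene was called at 2-fold from each other region, and pairs were counted at 2-fold. From the related lists, called genes were named, at most 4 per list by the widest gap, and for each member with a range of 2-fold or more the 3 genes nearest in profile. The members and lists were chosen with earlier results of these data known. Alternatives changed the floor, the probe sets used, the scaling, the fold and the arrays. Python 3.11.15, pandas 2.3.3 and numpy 2.4.6 were used.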

Additional observations from a re-analysis of the deposited data

How the results depend on the processing

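Of 82 values for the main results under the alternatives, 67 stayed within 1.5 times the count or within the probe set noise and 15 moved. The number of members called higher, 2, was 1 at 3-fold, and the number called lower, 2, was 1 when the floor was raised to the 70th percentile. The 27 combinations of member and pair of regions at least 2-fold apart became 16 at 3-fold. Scaled on the hybridisation controls, an alternative added after seeing the data, the median distance was 0.074 in the subventricular zone and -0.48 in the hippocampus. Leaving out an array gave 1 to 5 members called higher (5 without the subventricular zone, 4 without the ventral mesencephalon, 1 without the olfactory bulb) and 2 to 7 called lower (7 without the olfactory bulb). The median distances then ran from 0.55 (without the hippocampus) to 1.32 (without the subventricular zone) in the ventral mesencephalon, and from 0.26 (without the hippocampus) to 1.17 (without the ventral mesencephalon) in the subventricular zone. They ran from -0.80 (without the hippocampus) to -0.14 (without the ventral mesencephalon, and -0.16 without the subventricular zone) in the olfactory bulb. In the hippocampus they ran from -1.49 (without the olfactory bulb) to -0.90. With fewer arrays a call needs fewer comparisons, for members and other genes alike, and the cause of the other moves was not tested. For the counts at 3-fold, those called at the higher floor and those without an array, the share of all genes is not given. These counts therefore do not compare the members with other genes. The count of 8 members with their 2 highest levels in the ventral mesencephalon and subventricular zone was 6 to 8 under the floor, probe set and scaling alternatives; the share of all genes was 3.56% where it was 6 (hybridisation controls), 11.6% where it was 7 (higher floor) and 16.6% to 18.2% elsewhere. Of 100 gaps of single members 18 moved and none of a called gene reversed; that of Btg2 was 1.004 with the mean of its probe sets, against 1.95. No paired analysis was possible because each region has 1 array. Signals below the floor are not measured here, which limits Fosb.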
